A study of Mus musculus with 22 samples.

Results

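Histone cluster genes are the genes, packed into a few clusters, that encode the bulk histones on which DNA is wound. They were taken here as every gene whose symbol begins with Hist1h, Hist2h, Hist3h or Hist4h, a set chosen by name but selected on a measured value as well, since it was proposed with the genes' log2 changes in sorted minus unsorted cultures in view. This gave 61 of the 19781 genes in each of the authors' tables on embryonic stem cells and 60 of the 19057 genes in their table on induced pluripotent stem cells, where Hist2h2aa2 was not listed. By type, 6 encode the linker histone H1, 16 encode H2A, 17 encode H2B, 10 encode H3 and 12 encode H4. By cluster, 50 lie in Hist1 (mouse chromosome 13), 7 in Hist2 (chromosome 3), 3 in Hist3 (chromosome 11) and 1 in Hist4 (chromosome 6).

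In the nucleosome, a core of H3 and H4 is flanked by dimers of H2A and H2B, and H1 binds the DNA where it enters and leaves. Most of these genes are replication-dependent: they are transcribed in S phase, when new chromatin is assembled, and their messages end in a short stem-loop bound by the protein SLBP in place of a poly(A) tail. Some of them, among them Hist1h1c, Hist1h2bc and Hist2h2be, are known to give polyadenylated messages too, which cells that have left the cell cycle use. Many H2A and H2B genes sit head to head, so that a single stretch of DNA serves as the promoter of both.

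The data are RNA sequencing of mouse cells with the Col2.3GFP transgene, a reporter of green fluorescent protein (GFP) driven by a piece of a type I collagen gene promoter, so that GFP marks cells in which that piece is active. The groups used were ESC (an embryonic stem cell line at passages 20 to 30, day 0, 3 samples), ESC-OB (osteoblast cultures from it, 35 to 40 days, 3 samples), ESC-OB GFP+ (GFP-positive cells sorted from such cultures, 35 to 40 days, 3 samples, passage not stated), iPSC (an induced pluripotent line at passages 10 to 20, day 0, 2 samples) and iPSC-OB (osteoblast cultures from it, 35 to 40 days, 2 samples). All cultures began as embryoid bodies, held for 6 days without LIF, PD0325901 and CHIR99021, with 0.1 µM retinoic acid between day 3 and day 5, before osteogenic medium. Calvarial osteoblasts (3 samples, 3 weeks) and long bone cells from mice at postnatal day 23, sorted as GFP high or GFP low (3 samples each), were not analysed here. Each cell source is a single line, stem cells were kept on feeders or without serum, and neither the medium of each sample nor whether replicates came from separate cultures is given, so p-values measure only the spread between these samples. Messenger RNA was purified on beads, or an ultra-low-input kit was used where RNA was scarce. The sources used here do not tie kits to samples, and the part of the kit in the level of messages that mostly lack a poly(A) tail was not tested.

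The files hold the authors' comparisons and no value for a single sample. Every fold change and standard error (SE, after the ± sign) of a single gene in a comparison is therefore the authors', and group levels in CPM (reads out of 1000000) are estimates from their base means and fold changes. No test stands behind a level compared between the ESC table and the iPSC table. The ESC libraries held an estimated 4.49 to 19.5 M reads, the ESC-OB libraries 6.72 to 11.5 M, the sorted libraries 22.4 to 30.1 M, the iPSC libraries 10.4 to 13.0 M and the iPSC-OB libraries 10.1 to 17.7 M. Summed pluripotency markers were highest in the stem cells, and the osteoblast sum was higher in each differentiated group than in its stem cells. The summed level of 5 pluripotency markers was 3704 CPM in ESC, 33.6 in ESC-OB, 21.2 in the sorted cells, 1802 in iPSC and 47.0 in iPSC-OB. The summed level of 6 osteoblast markers was 12.1 CPM in ESC, 5065 in ESC-OB, 10872 in the sorted cells, 727 in iPSC and 2619 in iPSC-OB. Nearly all of these osteoblast sums came from the collagen genes Col1a1 and Col1a2, and the single markers did not all follow the sum. The late osteoblast gene Bglap was at 0.83 CPM in ESC-OB, 0.54 in the sorted cells and 1.16 in iPSC-OB. Runx2 was at 25.5, 16.8 and 16.3 CPM in these groups, and Sp7 at 0.74, 2.33 and 0.62. The change of Sp7 did not pass in ESC-OB or iPSC-OB. Of other cell types, 3 cardiac markers summed to 2114 CPM in ESC-OB, 395 in the sorted cells and 354 in iPSC-OB, and 4 epithelial markers to 1384, 2793 and 1421.

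The stem-loop that ends these messages could be read from a transcript model of GENCODE release M21 for 40 of the 61 genes. A single model was searched per gene, the longest protein-coding or pseudogene one, so other models of a gene may differ. The search was for a stem of 6 fully paired bases that starts with GG, around a loop of 4 bases that starts with T. The form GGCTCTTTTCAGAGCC was the most frequent, in 21 models, followed by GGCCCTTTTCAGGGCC and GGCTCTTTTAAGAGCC in 6 each. The sites below belong to genes whose changes are described next, and capitals mark the stem and loop, with 5 bases on each side. The stem and loop are identical in Hist1h2ag, Hist1h2ac, Hist1h1c and Hist3h2a, although the first pair of these genes fell and the other pair rose in ESC-OB.
Hist1h2ag: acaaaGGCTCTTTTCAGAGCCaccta
Hist1h2ac: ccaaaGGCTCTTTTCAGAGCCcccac
Hist1h1c: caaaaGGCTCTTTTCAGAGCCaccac
Hist3h2a: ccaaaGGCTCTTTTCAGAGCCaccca
Hist1h2bk: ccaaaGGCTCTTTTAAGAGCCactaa
Hist1h4d: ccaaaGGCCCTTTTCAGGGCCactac

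Promoters were taken from RefSeq on GRCm38.p6 for 55 of the genes (56 promoters), each from 250 bases before the start to 50 after it. On either strand, TATAAA was present in 58.9% of these promoters against 13.6% of all 32851 promoters of that length, and CCAAT in 85.7% against 37.4%. The octamer ATTTGCAT, known from H2B promoters, was present in 43.8% of H2A and 46.7% of H2B promoters and in none of H1, H3 or H4, against 1.74% of all promoters. Promoters of head-to-head genes can overlap, so that 1 site counts for both genes, as for the octamer of Hist1h2ae and Hist1h2bg. The H2A and H2B shares are therefore not independent. The box AAACACA of H1 promoters was present in 83.3% of H1 promoters against 7.18% of all. A match describes letters only. The 250 bases before the start are shown for an H2A gene that fell, an H1 gene that rose and an H4 gene that fell, with matches to the 4 motifs on either strand in capitals. The Hist1h2ac stretch lies at chr13:23683960-23684209 on the minus strand, and the annotated ends of Hist1h2ac and of Hist1h2bc, which is transcribed the other way, are 250 bases apart. The Hist1h1c stretch lies at chr13:23738557-23738806 and the Hist1h4d stretch at chr13:23581318-23581567, both on the plus strand.
Hist1h2ac: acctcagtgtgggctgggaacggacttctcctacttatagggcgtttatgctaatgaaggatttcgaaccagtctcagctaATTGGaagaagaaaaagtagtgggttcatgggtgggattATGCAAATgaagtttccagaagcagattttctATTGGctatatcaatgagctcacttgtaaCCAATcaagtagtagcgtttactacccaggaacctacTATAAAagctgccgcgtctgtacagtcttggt
Hist1h1c: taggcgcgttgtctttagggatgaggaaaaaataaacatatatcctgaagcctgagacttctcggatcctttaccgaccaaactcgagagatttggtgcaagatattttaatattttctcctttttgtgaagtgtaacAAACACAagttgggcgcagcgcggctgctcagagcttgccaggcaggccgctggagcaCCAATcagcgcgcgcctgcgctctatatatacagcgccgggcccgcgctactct
Hist1h4d: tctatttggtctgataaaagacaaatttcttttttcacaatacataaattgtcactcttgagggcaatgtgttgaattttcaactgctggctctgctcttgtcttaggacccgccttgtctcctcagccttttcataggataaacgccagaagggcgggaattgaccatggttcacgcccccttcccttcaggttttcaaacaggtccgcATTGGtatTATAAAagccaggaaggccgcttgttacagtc

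Most histone cluster genes fell when ESC became osteoblast cultures. In ESC-OB against ESC, 40 of the 61 genes fell, 4 rose, 12 did not pass an adjusted p of 0.05 (DESeq2 with the Benjamini-Hochberg method, BH) and 5 had no adjusted p, while over all genes tested 31% fell and 38.6% rose. The median log2 fold change of the 61 was -2.11, beside 0.22 over all genes. In the sorted GFP+ cells against the same ESC libraries, 22 fell, 10 rose, 25 did not pass and 4 had no adjusted p, beside 32.4% falling and 39.1% rising over all genes, and the median of the 61 was -0.63 (all genes, 0.33). In iPSC-OB against iPSC, 35 of the 60 fell, 2 rose, 20 did not pass and 3 had no adjusted p, beside 23.1% falling and 26.1% rising over all genes, with a median of -1.96 (all genes, 0.17). The members summed to 269 CPM in ESC, 79.7 in ESC-OB, 222 in the sorted cells, 386 in iPSC and 135 in iPSC-OB. In bulk RNA, fewer cells that express a gene and less of its RNA per cell cannot be told apart.

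The ESC-OB and iPSC-OB comparisons share no library. Of the 40 members that fell in ESC-OB, 33 (82.5%) also fell in iPSC-OB, and they were 94.3% of the 35 that fell there. Over all genes, the falls in common were 58.2% of those in ESC-OB and 81.2% of those in iPSC-OB. Both members that rose in iPSC-OB, Hist1h1c and Hist1h2bc, were among the 4 that rose in ESC-OB.

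**Figure D1:**
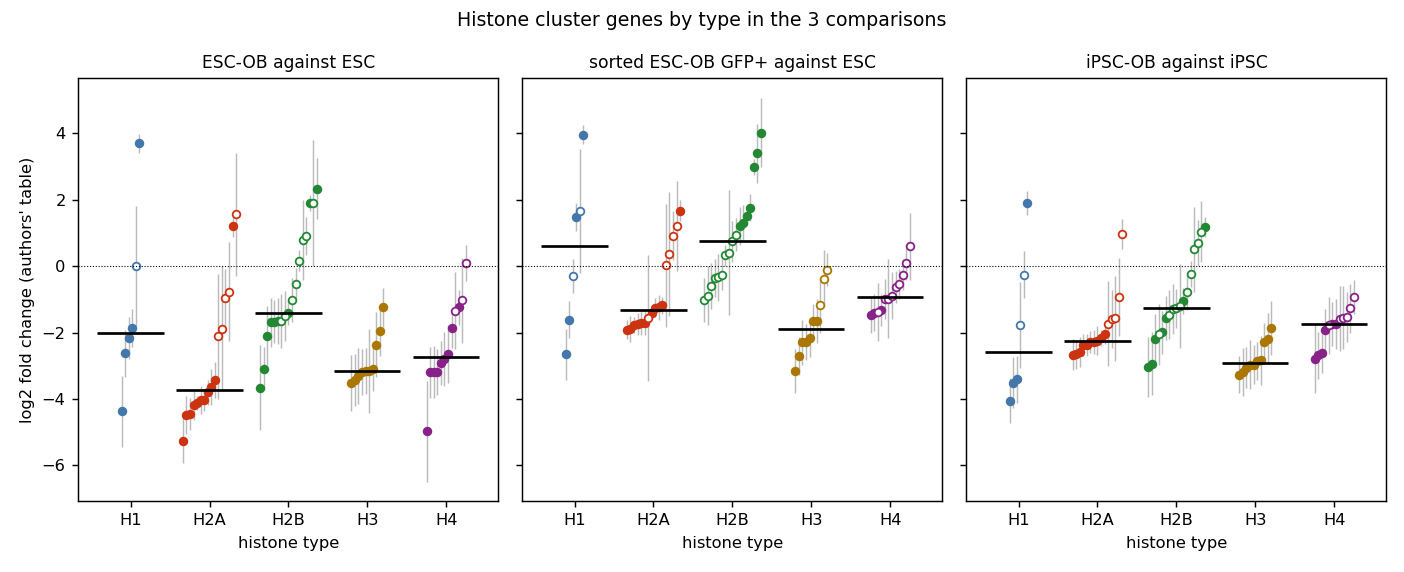
Log2 fold change of each histone cluster gene (vertical axis, authors' tables, with its standard error) by histone type (horizontal axis) in the 3 comparisons. Filled points passed an adjusted p of 0.05, open points did not or had none, and bars are medians: all 10 H3 genes lie below 0 in every panel, while the H2B median is -1.41 in ESC-OB and 0.75 in the sorted cells.

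The linker histone genes moved in opposite directions. Of 6 H1 genes, 4 fell and 1 rose in ESC-OB, 2 fell and 2 rose in the sorted cells, and 3 fell and 1 rose in iPSC-OB. Over all genes, 31%, 32.4% and 23.1% fell and 38.6%, 39.1% and 26.1% rose in these comparisons. The H1 counts in the sorted cells are near these shares. Hist1h1c, which encodes the linker histone H1.c, was at an estimated 1.55 CPM in ESC, 21.6 in ESC-OB, 26.9 in the sorted cells, 5.21 in iPSC and 19.9 in iPSC-OB. Each differentiated group was higher than its stem cells. The authors' deposited table has Hist1h1c rising by 3.70 ± 0.29 in ESC-OB (BH-adjusted p = 4.45e-36), by 3.96 ± 0.29 in the sorted cells (BH-adjusted p = 1.33e-42) and by 1.89 ± 0.36 in iPSC-OB (BH-adjusted p = 7.43e-07).

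Hist1h1a, another linker histone gene, fell: in the authors' deposited table it fell by 2.63 ± 0.71 in ESC-OB, 1.61 ± 0.57 in the sorted cells and 4.05 ± 0.67 in iPSC-OB (BH-adjusted p = 3.93e-04, 0.00705 and 1.33e-08). Its level was 1.89 CPM in ESC, 0.328 in ESC-OB, 0.690 in the sorted cells, 4.53 in iPSC and 0.282 in iPSC-OB. Hist1h1d also fell in ESC-OB and iPSC-OB, by 2.15 ± 0.63 and 3.40 ± 0.71 in the authors' deposited table (BH-adjusted p = 0.00124 and 7.24e-06), and was at -0.30 ± 0.52 in the sorted cells. Hist1h1e fell in ESC-OB and rose in the sorted cells. It was at 1.61 CPM in ESC, 0.473 in ESC-OB and 5.05 in the sorted cells, so ESC lay between the differentiated groups. By the authors' deposited table it fell by 1.87 ± 0.57 in ESC-OB (BH-adjusted p = 0.00200) and rose by 1.49 ± 0.42 in the sorted cells (BH-adjusted p = 6.88e-04), and iPSC-OB was at -0.26 ± 0.71 (BH-adjusted p = 0.783). Hist1h1e overlaps Hist1h2be on the same strand in GENCODE, so reads of these neighbours may not be separable. Hist1h1t, a testis linker histone gene, was under the floor of 3 reads over a group in ESC and ESC-OB (floors 0.102 and 0.114 CPM), at 0.0432 CPM in the sorted cells (floor 0.0427) and at 0.130 CPM in iPSC.

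H2A genes gave most of the family's reads in ESC and fell together. The same 10 H2A genes fell in ESC-OB and in iPSC-OB, which share no library, and they also fell in the sorted cells, which were set against the ESC libraries of ESC-OB: Hist1h2ab to Hist1h2ai, Hist1h2ak and Hist1h2an. Their log2 changes ran from -5.25 to -3.43 in ESC-OB, from -1.92 to -1.19 in the sorted cells and from -2.67 to -2.06 in iPSC-OB in the authors' deposited tables. Among all genes, 31% fell in ESC-OB, 32.4% in the sorted cells and 23.1% in iPSC-OB. Hist1h2ag gave 102 CPM in ESC, 6.29 in ESC-OB, 42.5 in the sorted cells, 123 in iPSC and 28.2 in iPSC-OB. ESC-OB was the lowest of the 5 groups and the sorted cells lay between ESC-OB and ESC. It fell by 4.11 ± 0.21 in ESC-OB (BH-adjusted p = 2.40e-82), 1.42 ± 0.18 in the sorted cells (BH-adjusted p = 1.73e-14) and 2.17 ± 0.23 in iPSC-OB (BH-adjusted p = 2.05e-19) in the authors' deposited table.

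Hist1h2ac had the same order, with 21.7 CPM in ESC, 1.43 in ESC-OB and 10.7 in the sorted cells, and 25.5 and 6.32 CPM in iPSC and iPSC-OB. The falls of Hist1h2ac were 4.03 ± 0.33, 1.19 ± 0.24 and 2.06 ± 0.29 in the authors' deposited tables for ESC-OB, sorted cells and iPSC-OB (BH-adjusted p = 2.47e-32, 2.54e-06 and 1.69e-11). Hist1h2ae went from 13.4 CPM in ESC to 0.873 in ESC-OB and 6.28 in the sorted cells. Hist1h2af had the deepest fall of the H2A genes in ESC-OB, though not in the sorted cells or iPSC-OB. It fell by 5.25 ± 0.68 in ESC-OB and by 1.71 ± 0.37 in the sorted cells in the authors' deposited table (BH-adjusted p = 3.49e-14 and 9.69e-06), from 7.84 CPM in ESC to 0.221 and 2.68. Hist1h2ab fell by 3.43 ± 0.55 and 1.91 ± 0.39 by the same authors' deposited table (BH-adjusted p = 1.27e-09 and 2.48e-06). Many H2A transcripts share long stretches. The median H2A model shared 62.6% of its 50-base windows with another transcript, Hist1h2ag 78.9% and Hist1h2ac 14.1%. Of the 2482 bases of the Hist1h2ac model, 2010 follow the stem-loop. Its low share therefore describes mostly that tail, and the share within its histone part was not measured. The split of reads between copies that share most windows is uncertain.

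Hist3h2a, the H2A gene of the small Hist3 cluster, was the only H2A gene that rose. Its levels were 2.94 CPM in ESC, 7.23 in ESC-OB and 10.4 in the sorted cells, and the authors' deposited table gives rises of 1.20 ± 0.32 (BH-adjusted p = 4.27e-04) and 1.66 ± 0.31 (BH-adjusted p = 2.20e-07). From iPSC (2.39 CPM) to iPSC-OB (4.83 CPM) the authors' deposited table gives a difference of 0.97 ± 0.44, which did not pass (BH-adjusted p = 0.0584). Hist3h2a overlaps Trim17 on the same strand. The testis gene Hist1h2aa was under the floor in all 5 groups.

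Of the 17 H2B genes, 16 had an adjusted p in each comparison. In ESC-OB 7 fell and 2 rose, beside 31% of all genes that fell and 38.6% that rose. In the sorted cells none fell, beside 32.4% of all genes, and the 7 that rose are a share near the 39.1% of all genes. In iPSC-OB 6 fell and 1 rose, beside 23.1% of all genes that fell and 26.1% that rose. Hist1h2bc was at 3.96 CPM in ESC, 15.8 in ESC-OB, 35.1 in the sorted cells, 7.26 in iPSC and 17.0 in iPSC-OB. Both stem cell groups were lower than all 3 differentiated groups. The authors' deposited tables have it rising by 1.89 ± 0.24 in ESC-OB (BH-adjusted p = 2.57e-14), 2.99 ± 0.23 in the sorted cells (BH-adjusted p = 1.53e-36) and 1.18 ± 0.29 in iPSC-OB (BH-adjusted p = 2.07e-04). Hist1h2bg was at 3.45 CPM in ESC and 4.15 in ESC-OB, and the authors' deposited table has this difference, 0.16 ± 0.31, short of the threshold (BH-adjusted p = 0.645), but it rose by 1.51 ± 0.28 to 11.0 CPM in the sorted cells (BH-adjusted p = 2.00e-07).

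Hist1h2bk fell in ESC-OB by 1.41 ± 0.37 and in iPSC-OB by 1.05 ± 0.39 in the authors' deposited tables (BH-adjusted p = 3.00e-04 and 0.0173), with 0.32 ± 0.31 in the sorted cells (BH-adjusted p = 0.355). Hist1h2bn fell by 3.09 ± 0.66 in ESC-OB and was at -0.26 ± 0.47 in the sorted cells in the authors' deposited table (BH-adjusted p = 5.78e-06 and 0.620). Hist1h2bl is listed by the authors' deposited table as lower in ESC-OB (-1.66 ± 0.69, BH-adjusted p = 0.0255) and higher in the sorted cells (1.21 ± 0.57, BH-adjusted p = 0.0466), and the latter no longer passed when changes were re-centred on the median gene. Hist2h2be, known for its polyadenylated message in cells that have stopped dividing, was at 1.00 CPM in ESC, 2.02 in ESC-OB, 0.867 in the sorted cells, 0.715 in iPSC and 1.51 in iPSC-OB. None of its 3 differences passed (0.91 ± 0.57, -0.37 ± 0.56 and 1.03 ± 0.93 in the authors' deposited tables). Hist2h2bb fell by 1.70 ± 0.72 in ESC-OB in the authors' deposited table (BH-adjusted p = 0.0286).

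The testis gene Hist1h2ba rose in the sorted cells. It was under the floor in ESC (0.0881 CPM), at 0.161 CPM in ESC-OB and at 1.59 CPM in the sorted cells, and under the floor in iPSC and iPSC-OB. The sorted cells were the highest of the 5 groups. The authors' deposited table gives a rise of 4.02 ± 1.05 there (BH-adjusted p = 2.35e-04), a fitted value that is no bound because ESC lies under the floor. Of 12 germ cell genes, 6 fell in the sorted cells (among them Ddx4, Dazl and Sycp1), 2 did not pass and 4 had no adjusted p. Among all genes, 32.4% fell there. Hist3h2ba, chosen after its values were seen as the other Hist3 gene that rose, increased by 2.32 ± 0.92 in ESC-OB and 3.39 ± 0.89 in the sorted cells in the authors' deposited table (BH-adjusted p = 0.0178 and 2.35e-04), from 0.171 CPM in ESC to 0.920 and 2.01.

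**Figure D2:**
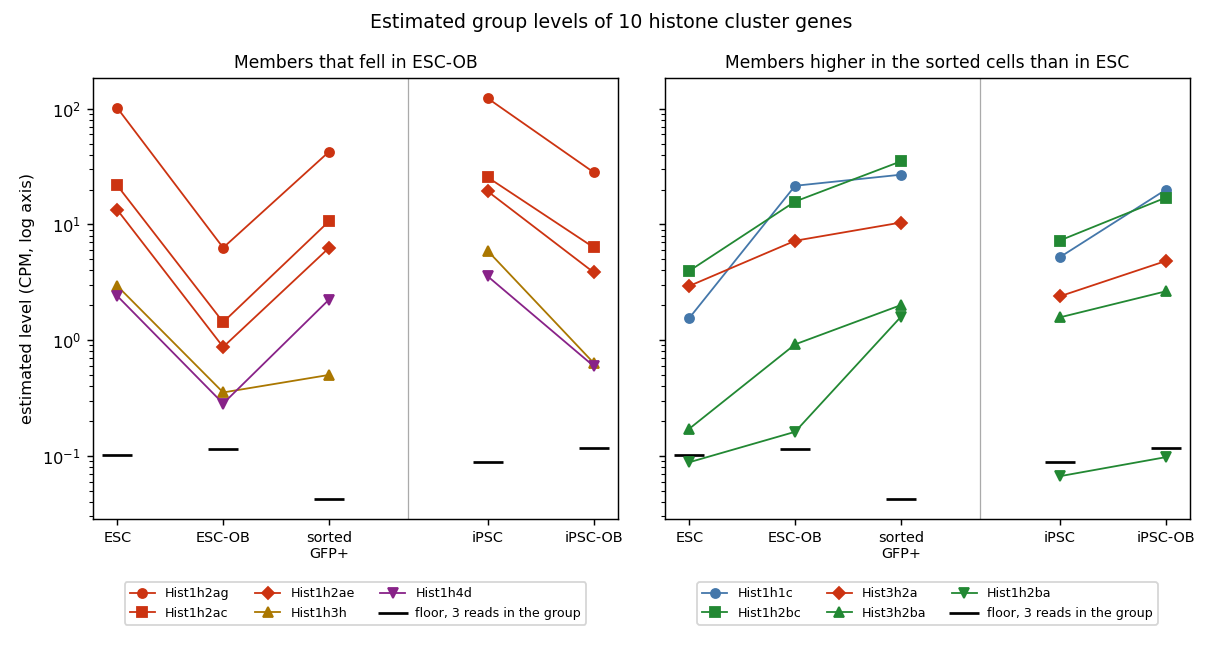
Estimated level (CPM, log axis) of 10 histone cluster genes in the 5 groups (horizontal axis), with no error because the tables hold no values per sample; black bars are the floor of 3 reads over a group. Hist1h2ag goes from 102 CPM in ESC to 6.29 in ESC-OB and 42.5 in the sorted cells, while Hist1h1c and Hist1h2bc are higher in every differentiated group than in its stem cells.

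H3 genes fell without exception outside the sort. All 10 fell in ESC-OB and all 10 in iPSC-OB, with medians of -3.16 and -2.91, beside 31% and 23.1% of all genes that fell. In the sorted cells 7 of 10 fell, with a median of -1.90, beside 32.4% of all genes that fell. Hist1h3h was at 2.94 CPM in ESC, 0.353 in ESC-OB, 0.501 in the sorted cells, 5.89 in iPSC and 0.634 in iPSC-OB, so all differentiated groups were low. It fell by 3.16 ± 0.69, 2.71 ± 0.58 and 3.26 ± 0.57 in the authors' deposited tables (BH-adjusted p = 1.20e-05, 5.07e-06 and 6.54e-08). Hist1h3i was alike, with falls of 3.09 ± 0.68, 2.29 ± 0.53 and 2.96 ± 0.60 in the authors' deposited tables (BH-adjusted p = 1.32e-05, 3.42e-05 and 3.65e-06). Hist1h3b and Hist1h3d fell by 3.44 ± 0.78 and 3.19 ± 0.70 in ESC-OB and by 2.15 ± 0.59 and 1.65 ± 0.52 in the sorted cells of the authors' deposited table (BH-adjusted p = 2.06e-05, 1.25e-05, 5.23e-04 and 0.00248). Hist2h3b, from the Hist2 cluster, was at 1.62 CPM in ESC, 0.735 in ESC-OB and 1.67 in the sorted cells, and its fall of 1.24 ± 0.58 in ESC-OB passed narrowly in the authors' deposited table (BH-adjusted p = 0.0466).

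Of 12 H4 genes, 9 fell in ESC-OB, 3 in the sorted cells and 6 in iPSC-OB, beside 31%, 32.4% and 23.1% of all genes. The share in the sorted cells is no larger than that of all genes. None rose in any comparison, beside 38.6%, 39.1% and 26.1% of all genes. Hist1h4d was at 2.41 CPM in ESC, 0.283 in ESC-OB, 2.24 in the sorted cells, 3.55 in iPSC and 0.596 in iPSC-OB. The level in the sorted cells was close to that in ESC and the levels in both unsorted cultures were low. Hist1h4d fell by 3.19 ± 0.68 in ESC-OB and 2.62 ± 0.59 in iPSC-OB in the authors' deposited tables (BH-adjusted p = 5.97e-06 and 3.81e-05), with -0.26 ± 0.47 in the sorted cells (BH-adjusted p = 0.630). Hist1h4b fell by 3.19 ± 0.79 in ESC-OB and 1.40 ± 0.57 in the sorted cells in the authors' deposited table (BH-adjusted p = 1.06e-04 and 0.0202). Hist1h4n fell by 1.24 ± 0.52 in ESC-OB and 1.92 ± 0.63 in iPSC-OB in the authors' deposited tables (BH-adjusted p = 0.0259 and 0.00581). Hist1h4i was the H4 gene with the smallest differences, 0.09 ± 0.55 in ESC-OB, 0.10 ± 0.52 in the sorted cells and -0.92 ± 0.52 in iPSC-OB in the authors' deposited tables, at 1.47, 1.68 and 1.77 CPM in ESC, ESC-OB and sorted cells. The falls of Hist1h1b, Hist1h2bf, Hist1h3f and Hist1h4f in ESC-OB end under the floor, so their fitted sizes are no bounds.

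The sorted minus unsorted difference is the log2 change in the sorted cells minus that in ESC-OB, from the same ESC libraries. The genes were proposed with this difference in view, so it is a description and carries no test. Of the 61 members, 58 had a difference above 0, beside 52.2% of all genes, and 47 had one above 1 log2 unit, beside 14.2% of all genes. The median was 1.73, a 3.31-fold higher level in the sorted than in the unsorted cultures, beside 0.06 over all genes, and 1.57 with levels raised to the floor. The median error of a member's difference was 0.90, the root of the summed squared standard errors, which counts the shared ESC libraries in full. Among the 40 members that fell in ESC-OB all 40 differences were above 0, with a median of 1.78. Among all 5651 genes that fell there 53.5% were, with a median of 0.09. Genes picked for a low ESC-OB change, which the difference subtracts, are pushed towards higher differences, more so where errors are larger. The median error was 0.85 in these members and 0.28 in all genes that fell, so the sets are not matched.

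By type, the median difference was 2.14 for H2A, 1.76 for H2B, 1.74 for H4, 1.69 for H1 and 1.07 for H3. The largest among members with a base mean of at least 10 was that of Hist1h2af (3.55 ± 0.77), an 11.7-fold higher level in the sorted cells, followed by Hist1h1e (3.36 ± 0.71), Hist1h4d (2.93 ± 0.83), Hist1h2bl (2.87 ± 0.90) and Hist1h2ac (2.84 ± 0.41). That of Hist1h2ag, with the most reads and the smallest error, was 2.70 ± 0.28. At the other end lay Hist1h4i (0.01 ± 0.76), Hist1h1c (0.26 ± 0.41), Hist1h3h (0.45 ± 0.90) and Hist3h2a (0.47 ± 0.45). The 3 negative differences were those of Hist2h2be (-1.28 ± 0.80), Hist3h2bb-ps, a pseudogene (-1.49 ± 2.66), and Hist2h2aa2 (-1.19 ± 2.63), and the latter pair had base means under 1. The sorted libraries were the deepest of the ESC fit, and cardiac and endothelial marker sums were lower in them than in ESC-OB (endothelial, 76.5 against 213 CPM) while epithelial and osteoblast sums were higher. The part of depth, of these cells and of the library kit in the difference was not tested.

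**Figure D3:**
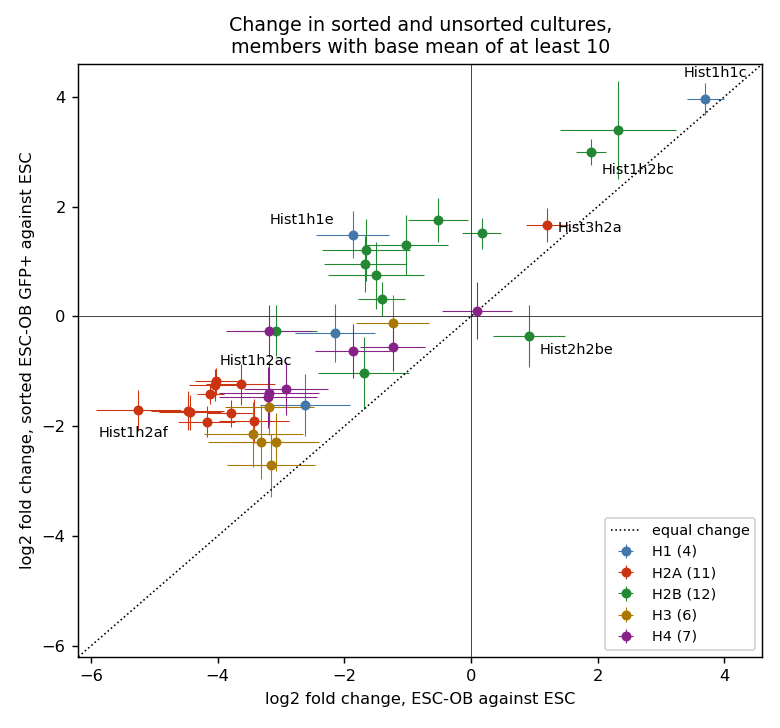
Log2 fold change in the sorted GFP+ cells (vertical axis) against that in the unsorted ESC-OB (horizontal axis), both from the same ESC libraries, for the 40 members with a base mean of at least 10. Bars are standard errors from the authors' table and the dotted line marks equal change: all points but Hist2h2be lie on or above it, and H2A genes cluster at the lower left.

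Several H2A and H2B genes form head-to-head pairs, which allows genes that share a promoter stretch to be compared. There were 11 such pairs, with 172 to 305 bases between their annotated ends on GRCm38. In 2 of them a gene is hardly read: Hist1h2aa, the partner of Hist1h2ba, lies under the floor in every group, and Hist3h2bb-ps, the pseudogene beside Hist3h2a, lies under it in all groups but iPSC. Leaving out pairs with a gene under the floor in both groups compared, a choice made after seeing the data, the H2A gene had a lower log2 change than its H2B partner in 9 of 9 pairs in ESC-OB, in 8 of 9 in the sorted cells and in 9 of 10 in iPSC-OB. The median difference of H2A minus H2B was -2.80, -2.45 and -1.02 in these pairs, and -2.80, -2.45 and -1.22 in all 11. Of the 11 H2A genes 8 fell in each comparison, beside 31%, 32.4% and 23.1% of all genes. Of the 11 H2B partners 5 fell and 1 rose in ESC-OB, none fell and 5 rose in the sorted cells, where 39.1% of all genes rose, and 3 fell and 1 rose in iPSC-OB. The share of partners that rose in the sorted cells is near that of all genes.

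The Hist1h2ac and Hist1h2bc pair went in opposite directions in all 3 comparisons. The stretch printed above, with its CCAAT matches, octamer and TATAAA, is the one before the Hist1h2ac start. Hist1h2bc was not among the genes with a promoter taken, so how far the stretch serves both was not measured. In ESC-OB Hist1h2ac was at -4.03 and Hist1h2bc at 1.89, in the sorted cells at -1.19 and 2.99, and in iPSC-OB at -2.06 and 1.18, all in the authors' deposited tables and all past the threshold. Hist1h2ae and Hist1h2bg, 175 bases apart, were at -4.04 and 0.16 in ESC-OB and at -1.25 and 1.51 in the sorted cells of the authors' deposited table. Hist1h2ag and its partner Hist1h2bj were at -1.42 and 1.30 in the sorted cells, both past the threshold in the authors' deposited table (BH-adjusted p = 1.73e-14 and 0.0252). Pairs with similar fitted changes were Hist1h2ad and Hist1h2bf in ESC-OB (-3.80 and -3.65 in the authors' deposited table) and Hist1h2an and Hist1h2bp in iPSC-OB (-2.25 and -2.21). Hist1h2bf ended under the floor in ESC-OB, with an error of 1.27, so its fitted size is no bound and the order within that pair is uncertain. The pair is among the 9 counted in ESC-OB. Neither the H2A nor the H2B genes are independent of one another, since near-identical copies can exchange reads, and H2B models shared a median of 43.8% of their windows.

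**Figure D4:**
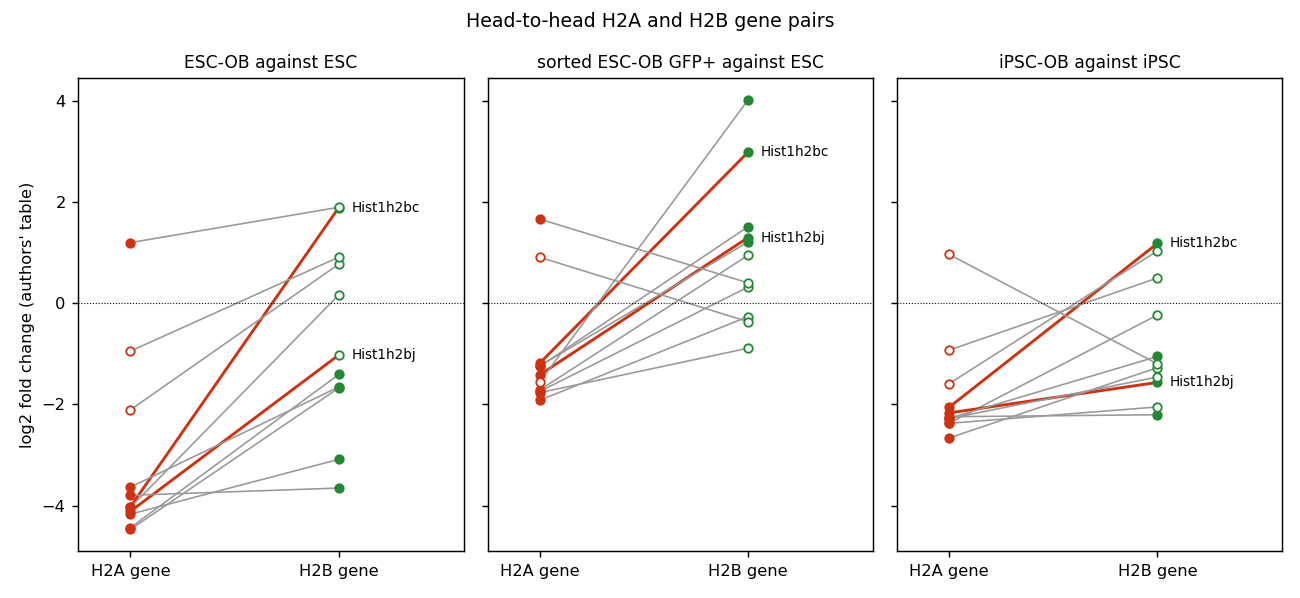
Log2 fold change (vertical axis, authors' tables) of the H2A and the H2B gene of 11 head-to-head pairs, joined by lines, in the 3 comparisons; filled points passed an adjusted p of 0.05, and red lines mark the pairs Hist1h2ac with Hist1h2bc and Hist1h2ag with Hist1h2bj. Without the pairs of Hist1h2aa and, in the ESC panels, Hist3h2a, in which a gene lies under the floor in both groups, lines rise from H2A to H2B in 9 of 9 pairs in ESC-OB, 8 of 9 in the sorted cells and 9 of 10 in iPSC-OB.

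Transcript models differ in what follows the stem-loop. In 19 members the model ended within 100 bases of it, and in 21 it ran on by more than 100 bases. In the other 21 no such stem-loop lay in the model. That does not show that their messages lack one. Some of these models are short, with 393 bases in Hist1h2ai and 312 in Hist1h4k, and may stop before the message ends. Of the 21 that ran on, 13 held the polyadenylation signal AATAAA downstream. In ESC-OB, 14 of the 19 that ended near the stem-loop fell and none rose, and of the 21 that ran on 11 fell and 3 rose. Of the 21 without a stem-loop, 15 fell and 1 rose, beside 31% and 38.6% of all genes that fell and rose there. In the sorted cells, 7 of the 19 fell and 1 rose, and of the 21 that ran on 5 fell and 6 rose. Of the 21 without a stem-loop, 10 fell and 3 rose, beside 32.4% and 39.1% of all genes that fell and rose there. Histone type differed between these classes: none of the 3 H3 and 7 H4 genes whose models ran on rose in the sorted cells. Model and type were not separated. The median sorted minus unsorted difference was 1.73, 1.75 and 1.73 in the models that ended near, ran on and held no stem-loop. In Hist1h1c the model ran on for 840 bases, in Hist3h2a for 1643 and in Hist1h2ac, which fell, for 2010. Which ends these cells used was not measured.

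Lists of genes that act around the histone cluster genes were measured beside them. All 20 S phase genes on a fixed list (the Mcm genes, Pcna, Rrm2 and others) fell in each of the 3 comparisons. Among all genes, 31% fell in ESC-OB, 32.4% in the sorted cells and 23.1% in iPSC-OB. The 20 S phase genes had medians of -3.30 in ESC-OB, -3.21 in the sorted cells and -2.12 in iPSC-OB. Their sorted minus unsorted differences were above 0 in 10 and below 0 in 10, with a median of 0.01. Pcna, the replication clamp, was at 476 CPM in ESC, 97.6 in ESC-OB and 79.3 in the sorted cells, and Rrm2, a subunit of ribonucleotide reductase, at 540, 16.9 and 21.5 CPM. Their differences, -0.36 ± 0.19 and 0.29 ± 0.37, stand beside 2.70 ± 0.28 for Hist1h2ag.

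Of 17 genes for histone mRNA processing and transcription, 15 fell in ESC-OB and 11 in iPSC-OB, beside 31% and 23.1% of all genes. In the sorted cells 15 fell and 2 rose, beside 32.4% and 39.1% of all genes. The median sorted minus unsorted difference of the 17 was -0.23. Slbp, whose protein binds the stem-loop, was at 116 CPM in ESC, 45.2 in ESC-OB and 94.3 in the sorted cells, a difference of 1.00 ± 0.20 (values named here although Slbp lies just outside the 6 with the most reads). Of 18 histone chaperone and assembly genes, 16 fell in ESC-OB and 16 in the sorted cells, beside 31% and 32.4% of all genes. The median difference of the 18 was -0.03. Nasp, a chaperone of H1 and H3, fell from 895 CPM in ESC to 71.5 in ESC-OB and 43.6 in the sorted cells.

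Histone genes outside the clusters, most of them known as replication-independent and polyadenylated, were measured as well. All 11 on the list had a difference above 0, with a median of 0.98. H3f3b, a gene of the replacement form of H3, was at 376 CPM in ESC, 718 in ESC-OB and 1595 in the sorted cells, and H2afz, which encodes the variant H2A.Z, at 621, 132 and 288. In ESC-OB 8 of the 11 fell and 3 rose, beside 31% and 38.6% of all genes. In the sorted cells 4 fell and 4 rose, near the shares of all genes (32.4% and 39.1%). H1f0, the linker histone gene of cells that have stopped dividing, rose by 2.84 ± 0.30 in ESC-OB, 3.02 ± 0.30 in the sorted cells and 2.80 ± 0.37 in iPSC-OB in the authors' deposited tables.

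**Figure D5:**
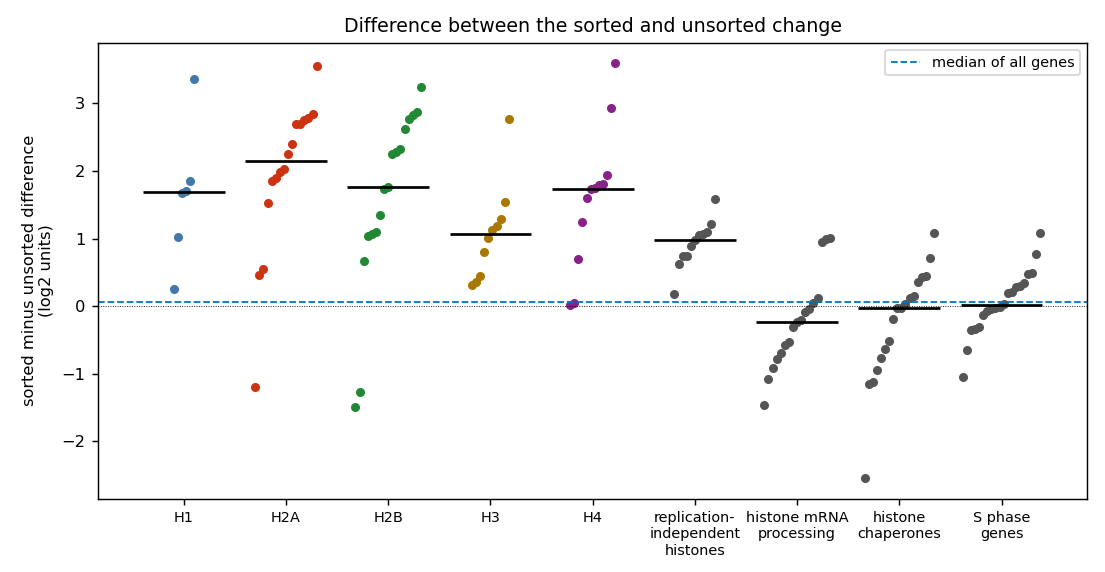
Sorted minus unsorted difference (vertical axis, log2 units) of each histone cluster gene by type and of each gene on 4 fixed lists; black bars are medians and the dashed line is the median of all genes (0.06). The medians of the 5 histone types lie between 1.07 and 2.14, that of the replication-independent histones at 0.98 and that of the S phase genes at 0.01.

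The change in iPSC-OB was tested against that in ESC-OB, as the difference of the authors' log2 changes over its error with Benjamini-Hochberg adjustment over 18632 shared genes. The difference passed in 9 of the 60 members: 8 were higher in iPSC-OB, that is, had fallen less, beside 11% of all genes, and 1 was lower, beside 17.2% of all genes. The 8 were all H2A genes, among the 15 H2A genes in both tables. Hist1h2ag differed by 1.95 ± 0.31 (BH-adjusted p = 1.41e-08), Hist1h2ac by 1.97 ± 0.44 (BH-adjusted p = 9.25e-05) and Hist1h2af by 2.59 ± 0.81 (BH-adjusted p = 0.00704). Hist1h1c was the gene that differed the other way, by -1.81 ± 0.46 (BH-adjusted p = 6.54e-04), having risen from 5.21 CPM in iPSC and from 1.55 CPM in ESC to similar levels in both cultures (19.9 and 21.6 CPM). No H2B, H3 or H4 gene passed, also at an unadjusted p of 0.05, and their median differences were -0.30, 0.33 and 0.53. The iPSC group had 727 CPM of osteoblast markers against 12.1 in ESC, and the tables were normalised separately. The part of these in the difference was not tested.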

How the data were processed

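RNA from 22 samples in 8 groups was sequenced, and the 3 deposited tables compare 5 of these groups. STAR 2.4.2a, DESeq2, R 3.2.2 and the mouse build mm9 are listed without roles, per the submitters' processing notes; the counting, the strand setting and the read length are not given in the sources used here. Per the file headers, the authors' values are a base mean (a signal: the mean normalised count), fold changes and their errors on the log2 scale, the statistic (a score) and raw and Benjamini-Hochberg adjusted p-values. Their direction was read from Pou5f1, Nanog and Esrrb, which are strongly negative. Columns of per-sample values numbered 0.

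A gene rose or fell where the authors' adjusted p was under 0.05. The value of 1 read in each library was recovered from the lowest base means (9 libraries explained 2040 of 2040 base means under 1 in the ESC fit, and 5 libraries 1456 of 1456 in the iPSC fit, within 3e-07), and group depths and CPM followed from it, with the ribosomal gene Rn45s left out of totals and libraries placed in groups by the sign of the fold changes of genes read in them alone. By this reading iPSC held 3 libraries, against 2 in the labels. A floor of 3 reads over a group covers counting error only. The difference test was tested on simulated data. Named genes were, per type, the 3 with the most reads, the 2 highest and 2 lowest sorted minus unsorted differences at a base mean of at least 10, and 6 genes known for polyadenylated or testis messages, plus at most 6 per list. The genes, lists and rules were chosen with earlier results of these data known. Sequences are from RefSeq and GENCODE on GRCm38, and 21 of 61 members overlap another annotated gene there. Python 3.11.15, numpy 2.4.6, scipy 1.17.1, pandas 2.3.3 and matplotlib 3.10.9 were used.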

Additional observations from a re-analysis of the deposited data

Results flagged for a closer look

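For 9 histone cluster genes the change in iPSC-OB differed from that in ESC-OB by the test of the difference itself. Over all genes tested, 11% were higher and 17.2% lower in this test, so the 9 of 60 are no larger a share than in the background. The H2A genes had fallen less in iPSC-OB, by 1.97 log2 units for Hist1h2ac, 1.42 for Hist1h2ad, 1.67 for Hist1h2ae, 2.59 for Hist1h2af, 1.95 for Hist1h2ag, 2.16 for Hist1h2ah, 1.89 for Hist1h2ak and 2.23 for Hist1h2an. Hist1h1c had risen less, with a difference of -1.81. Many H2A genes share long identical stretches, so these 8 are not independent of one another.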

How the results depend on the processing

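Counts of members that rose or fell stayed within 1.5 times of those reported at an adjusted p of 0.01, at a base mean of at least 10, with Benjamini-Hochberg adjustment over every gene and after re-centring on the median gene, which lay at 0.19, 0.21 and 0.06 in the ESC-OB, sorted and iPSC-OB comparisons. Re-centred, 42, 22 and 37 members fell and 4, 8 and 2 rose. At a base mean of at least 100 the H1 sorted minus unsorted difference moved to 0.26, because Hist1h1c was the H1 gene left. With 2 iPSC libraries, as labelled, the members summed to 415 CPM in iPSC, in place of 386. For named genes, 9 calls were lost and 1 was gained over these settings, and no called gene changed sign: lost at 0.01 were those of Hist1h2bl, Hist1h4n, Hist2h2bb and Hist2h3b in ESC-OB, of Hist1h2bl and Hist1h4b in the sorted cells and of Hist1h2bk in iPSC-OB. Adjusted over every gene, Hist2h3b was lost in ESC-OB. Re-centred, Hist1h2bl was lost in the sorted cells and gained in iPSC-OB, and genes that had not passed crossed 0: Hist1h2bg in ESC-OB (-0.02) and Hist1h4i in ESC-OB (-0.10) and the sorted cells (-0.11). No paired analysis was possible because the tables hold no values per sample, and replicates could not be left out for the same reason. Members with few reads limit the depth: 10 lay under the floor in ESC-OB and 3 in the sorted cells.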
